A study of Homo sapiens with 36 samples.

Results

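The genes of the mitochondrial respiratory chain and ATP synthase were followed in 4 prostate cancer (PCa) cell lines grown in 4 kinds of culture. Members were chosen by symbol: every gene whose name begins like a mitochondrial-encoded subunit (MT-ND, MT-CO, MT-ATP or MT-CYB) or like a nuclear-encoded one (NDUFA, NDUFB, NDUFC, NDUFS, NDUFV, SDHA to SDHD, UQCR, COX4 to COX8 or ATP5), with pseudogenes left out. This gave 111 of the 27852 genes in the table, 13 encoded in the mitochondrial genome and 98 in the nucleus. Of the nuclear members, 77 are common subunits, 7 are isoforms of a subunit that are restricted to some tissues or conditions, and 8 are assembly factors whose symbols begin with NDUFAF. The remaining 6 are the supercomplex factor COX7A2L, the ATP synthase inhibitor ATP5IF1, a pair of readthrough transcripts (NDUFC2-KCTD14 and ATP5MF-PTCD1) and a pair of gene copies (UQCRHL and ATP5MGL).

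Poly(A) RNA from the PCa cells was sequenced after 5 days of culture in 36 libraries. C4-2 and its bone-derived subline C4-2B served as osteoblastic PCa (BPCa), and DU145 and 22Rv1 as osteolytic PCa (LPCa). Each line was grown in mono-culture without RANKL (n = 3), with MG63 cells (n = 2), in mono-culture with 50 ng/mL RANKL (n = 2), and with RAW264.7 cells and 50 ng/mL RANKL (n = 2). MG63 cells come from a human osteosarcoma and stand for osteoblasts, RAW264.7 cells are mouse macrophages that RANKL can turn into osteoclast-like cells, and a filter with 0.6 µm pores kept the partner cells apart from the PCa cells. The control of the MG63 cultures had no RANKL, and the control of the RAW264.7 cultures had it. Each type of bone metastasis was thus represented by a pair of lines, and the labels do not say whether replicates were separate cultures, so every p below measures the spread between these libraries, which may be technical.

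Values are the deposited estimated counts summed per gene, given as CPM, the count scaled to a library total of 1000000. They may already be corrected for transcript length, as described with the processing. Total counts were 23932472 to 36719047 in the 12 mono-cultures without RANKL and 9593426 to 15418211 in the 24 other libraries, so depth and culture move together in each comparison against the mono-cultures without RANKL. A count of 3, taken as the detection limit, was at most 0.313 CPM. DU145 carried its marker: VIM, which encodes vimentin, was 1238 to 1288 CPM in the DU145 mono-cultures and at most 21.5 CPM in those of the other lines. The 11 MG63 and stromal markers summed to 5.55 to 19.2 CPM over all 36 libraries, with POSTN at 0 in both DU145 libraries grown with MG63, and the 7 macrophage markers to 10.8 to 91.5 CPM. One library stood apart and is named wherever it decides a result: replicate 2 of DU145 with MG63, in which all 13 mitochondrial genes were lower than in the other 8 DU145 libraries.

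Oxidative phosphorylation runs in the inner mitochondrial membrane. Complexes I and II pass electrons from NADH and succinate to ubiquinone, complex III passes them to cytochrome c, complex IV reduces oxygen, and complex V, the ATP synthase, uses the proton gradient that complexes I, III and IV build. The mitochondrial genome is transcribed as long polycistronic RNAs that are cut into single messages, whereas the nuclear subunits are transcribed gene by gene and imported as proteins. Complex II alone has no mitochondrial-encoded subunit. Normal prostate epithelium is known for a truncated tricarboxylic acid (TCA) cycle, and prostate cancer cells for a restored one that feeds the respiratory chain.

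The mitochondrial messages lie close to each other, and 2 pairs of them share bases, which bears on how reads can be assigned. MT-ATP8 (chromosome M, 8366 to 8572) ends inside MT-ATP6, and the shared stretch at chrM:8527-8572 (GRCh38, plus strand) is shown because it makes up 22.2% of MT-ATP8. MT-ND4L (chromosome M, 10470 to 10766) overlaps MT-ND4 at chrM:10760-10766. The capitals mark the start codon of the downstream gene.
MT-ATP8/MT-ATP6: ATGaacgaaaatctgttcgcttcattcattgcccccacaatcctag
MT-ND4L/MT-ND4: ATGctaa
Reads from such stretches cannot be given to one gene with certainty. The nucleus also holds 386 copies of mitochondrial genes in the table, of which MTATP6P1 was the most abundant at 1409 to 2427 CPM in the mono-cultures. MTATP6P1 differs from MT-ATP6 at 10 of 681 bases, is 98.5% identical to it and shares a run of 141 bases without a difference. Levels of MT-ATP6 and its neighbours are therefore uncertain by the reads that could belong to such copies. MT-ND6 lies on the other strand of the mitochondrial genome, opposite long transcripts, and the strand setting of the read counting is not given in the sources used here, so its reads may include antisense RNA.

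Nuclear members share promoter features that the choice by symbol did not use. RefSeq windows of 250 bases before to 50 bases after the gene start (GRCh38.p14) were matched for 80 of the 98 nuclear members, 4 of them through a synonym. The NRF1 motif GCGCANGCG, on either strand, was found in 24 of the 80 windows (30%) and in 8.05% of 27305 promoters of the same length. The GABPA motif CCGGAAG was found in 21 (26.2%) against 10.7%, and the YY1 motif AAGATGGCG in 8 (10%) against 1.85%. Of the 80 windows, 43 (53.8%) held at least 1 of these motifs, against 18.3% of all promoters. Stretches of 120 bases are shown for 4 members that hold the NRF1 motif, a pair that were lower in DU145 mono-cultures than in every other mono-culture (NDUFB4 and NDUFAB1) and a pair that were higher (SDHA and ATP5PO). They were chosen after their values were seen, and the capitals mark the NRF1 match.
NDUFB4, chr3:120596216-120596335, plus strand: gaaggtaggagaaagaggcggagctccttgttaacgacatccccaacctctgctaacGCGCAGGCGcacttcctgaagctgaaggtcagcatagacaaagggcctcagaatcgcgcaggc
NDUFAB1, chr16:23596317-23596436, minus strand: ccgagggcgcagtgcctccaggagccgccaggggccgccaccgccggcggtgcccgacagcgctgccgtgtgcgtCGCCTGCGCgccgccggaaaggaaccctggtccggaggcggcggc
SDHA, chr5:218200-218319, plus strand: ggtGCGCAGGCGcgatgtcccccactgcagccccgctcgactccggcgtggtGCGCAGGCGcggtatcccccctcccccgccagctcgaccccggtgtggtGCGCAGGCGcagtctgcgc
ATP5PO, chr21:33915805-33915924, minus strand: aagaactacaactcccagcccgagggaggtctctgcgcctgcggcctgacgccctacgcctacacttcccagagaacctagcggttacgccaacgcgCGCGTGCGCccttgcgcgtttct
Members with opposite orders among the lines thus carry the same motif, and a match is a description of the letters only.

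In the mono-cultures, the lines differed in how much of their RNA came from each genome. The 13 mitochondrial members took 9.82%, 9.59% and 9.81% of the counts in C4-2 and 8.87%, 9.09% and 9.20% in C4-2B. They took 14.5%, 14.6% and 13.9% in DU145 and 11.38%, 12.97% and 12.24% in 22Rv1. The shares rose in the order C4-2B, C4-2, 22Rv1 and DU145, and no value of one line overlapped with those of the next. The nuclear members took 2.77%, 2.81% and 2.81% in C4-2, 2.82%, 2.79% and 2.70% in C4-2B, and 2.75%, 2.61% and 2.71% in 22Rv1. In DU145 they took 1.87%, 1.82% and 1.82%, below every library of the other lines. C4-2B overlapped with both C4-2 and 22Rv1, and C4-2 lay above 22Rv1. The summed mitochondrial level was thus 7.82 ± 0.172 times the nuclear one in DU145 (SD, n = 3), 4.55 ± 0.418 times in 22Rv1, 3.48 ± 0.0650 times in C4-2 and 3.27 ± 0.129 times in C4-2B. Sums over genes were not tested. As the 111 genes are parts of 1 total, a larger mitochondrial share lowers every other share, and in bulk RNA fewer cells of a type and less RNA per cell cannot be told apart. Outside the mitochondrial counts, the nuclear members still took 2.14% ± 0.0369 in DU145 against 3.05% ± 0.0635 to 3.10% ± 0.0237 in the 3 other lines.

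**Figure D1:**
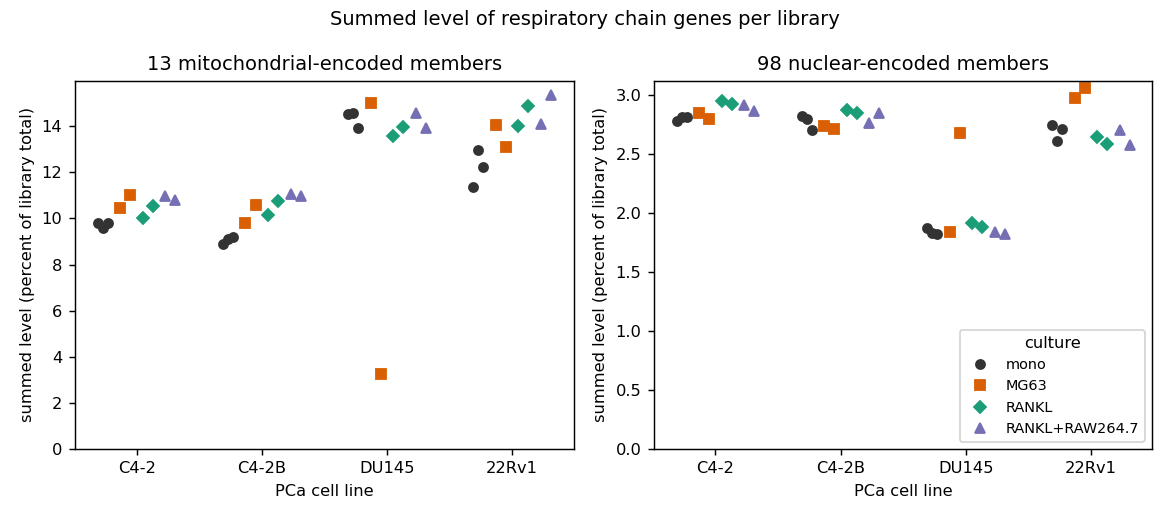
Summed level of the 13 mitochondrial-encoded (left) and 98 nuclear-encoded (right) members in each of the 36 libraries, in percent of the library total, by cell line and culture. DU145 has the highest mitochondrial share in mono-culture and the lowest nuclear share, and replicate 2 of DU145 with MG63 is the only library at 3.24% mitochondrial, beside a nuclear share of 2.68%.

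The lower nuclear share in DU145 was seen in 4 of the 5 complexes. These shares count only subunits and their isoforms, without the assembly factors, readthroughs, gene copies, COX7A2L and ATP5IF1. Nuclear complex I subunits took 0.537% ± 0.00737 of the counts in DU145 mono-cultures (SD, n = 3), 0.751% ± 0.0210 in 22Rv1, 0.850% ± 0.0177 in C4-2B and 0.871% ± 0.0106 in C4-2. Complex III subunits took 0.243% ± 0.00349 in DU145 and 0.316% ± 0.00871 in 22Rv1, complex IV subunits 0.378% ± 0.00961 and 0.664% ± 0.0208, and complex V subunits 0.509% ± 0.00964 and 0.780% ± 0.0172. Complex II, the enzyme that also belongs to the TCA cycle, differed: its 4 genes took 0.0759% ± 0.000516 in DU145, against 0.0729% ± 0.00253 in 22Rv1, 0.0688% ± 0.000331 in C4-2 and 0.0659% ± 0.00152 in C4-2B.

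Each of the mitochondrial messages was abundant in all lines. Per kilobase, MT-ND4L, a small complex I subunit, had the highest level in the mono-cultures of each line, from 23965 CPM per kilobase in C4-2B to 44997 in DU145. MT-ND5, the largest complex I subunit encoded there, had the lowest, from 1583 in C4-2 to 2124 in DU145. The paper describes the use of scaled TPM counts, which are already corrected for transcript length. If the deposited values are such counts, length was divided out again here, and this ranking may only follow gene length. Of the 13, 9 were higher in all 3 DU145 mono-cultures than in all 9 others: MT-ND1, MT-ND2, MT-ND3, MT-ND4 and MT-ND6 of complex I, MT-CO2 and MT-CO3 of complex IV, and MT-ATP6 and MT-ATP8 of complex V. Of all genes tested, 30.8% had this order. MT-ND1 was 9649, 9659 and 9264 CPM in DU145, 5438, 6216 and 5519 CPM in 22Rv1, 5636, 5309 and 5649 CPM in C4-2 cells, and 4275, 4066 and 4347 CPM in C4-2B. DU145 stood well above the other lines for this gene, 22Rv1 and C4-2 overlapped, and C4-2B was lowest. MT-CO1, the catalytic subunit of complex IV, had another order: 16314, 18216 and 17074 CPM in 22Rv1, 13273, 12968 and 13306 CPM in C4-2, 12809, 12674 and 12182 CPM in DU145, and 11047, 11431 and 11574 CPM in C4-2B. It was highest in 22Rv1, and none of the lines overlapped.

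**Figure D2:**
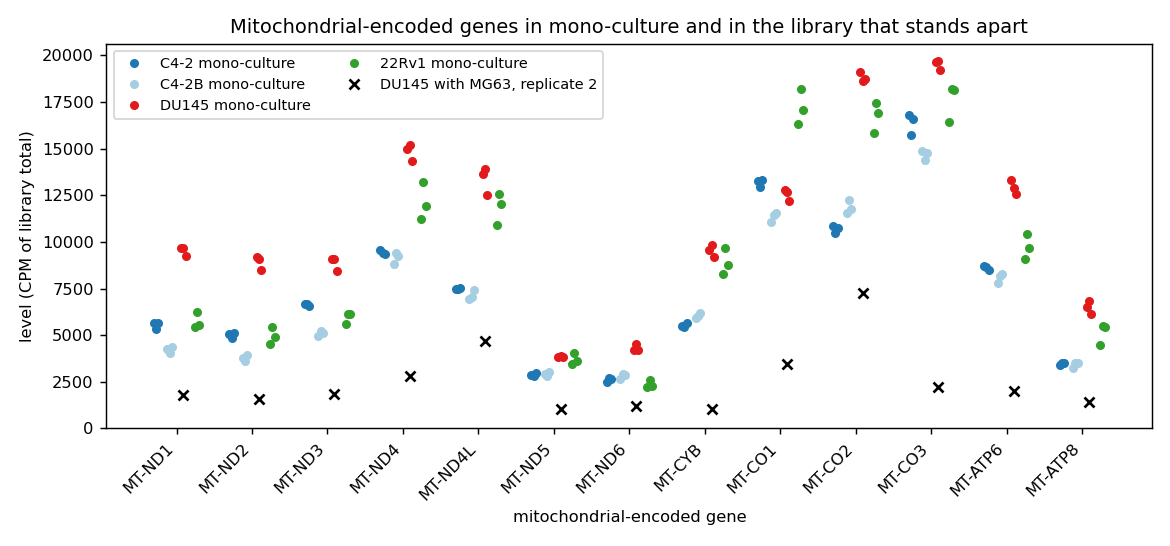
Level of each mitochondrial-encoded gene in CPM of the library total, for the 3 mono-cultures of each line (dots) and for replicate 2 of DU145 with MG63 (crosses). The DU145 dots are highest for 9 of the 13 genes, the 22Rv1 dots for MT-CO1, and every cross lies below the DU145 dots of its gene.

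Genes were tested one by one with edgeR's quasi-likelihood test on the rounded counts after TMM scaling, which sets the library sizes so that most genes do not change on average. A gene was called at a Benjamini-Hochberg adjusted p under 0.05 over all genes tested. Of the nuclear members, 92 passed the filter of at least 100 counts in at least 1 library (91 in the RAW264.7 comparison, where COX7A1 also failed). The 6 that did not pass are ATP5MGL, COX4I2, COX6A2, COX6B2, COX8C and UQCRHL. All 13 mitochondrial members were tested throughout.

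BPCa was first compared with LPCa in mono-culture, averaging the lines of each type. All 13 mitochondrial members had a negative log2 fold change, and 3 were called lower: MT-ND4L by −0.72 ± 0.14 (SE, edgeR adjusted p = 0.000198), MT-ATP8 by −0.69 ± 0.25 (adjusted p = 0.0175) and MT-CO2 by −0.59 ± 0.15 (adjusted p = 0.00210). None was called higher. Of all genes, 40.4% were called lower and 39.4% higher, so most genes separated these lines. The mitochondrial count depends on the library that stood apart, which sets the spread of these genes in the fit of 20 libraries although it is not a mono-culture. Without it all 13 were called, each lower in BPCa, where 85.3% of all genes were called in either direction, with nearly the same fold changes (MT-ND4L −0.72 ± 0.05, MT-ND1 −0.55 ± 0.03, MT-ND6 −0.17 ± 0.05). The difference was not the same in both LPCa lines: MT-CO1 was lower in DU145 than in C4-2, and MT-ND6 was 2210, 2597 and 2297 CPM in 22Rv1 against 2506, 2675 and 2648 CPM in C4-2.

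The nuclear members leaned the other way between BPCa and LPCa. Of 92, 56 were called higher in BPCa and 9 lower, with a median log2 fold change of 0.29 over the 92 against −0.01 over all genes. The LPCa lines were not alike in this. In DU145, 53 of the 92 were below all other mono-cultures, against 27.3% of all genes. In 22Rv1, 12 were below and 27 above all other mono-cultures, against 18.3% and 24.7% of all genes. By complex, 29 of 46 complex I members were higher and 5 lower, 6 of 8 of complex III were higher and 0 lower, 8 of 15 of complex IV were higher and 1 lower, and 12 of 19 of complex V were higher and 1 lower. Complex II was mixed. SDHD, a membrane anchor, was higher by 0.34 ± 0.05 (edgeR adjusted p = 3.81e-06), SDHC, the other anchor, lower by −0.23 ± 0.03 (adjusted p = 8.56e-06), and SDHA, the flavoprotein that oxidises succinate, lower by −0.21 ± 0.07 (adjusted p = 0.0108). SDHB, the iron-sulphur subunit, had −0.08 ± 0.12 (adjusted p = 0.559). Without the library that stood apart, 78 of the 92 were called in either direction, a share close to that of all genes. Of these, 67 were higher and 11 lower, where 5683 of 13432 genes were higher and 5780 lower, so the lean in direction remained.

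NDUFB4, an accessory subunit in the membrane arm of complex I (chromosome 3, 120596309 to 120602500, GRCh38), was called higher in BPCa and was abundant in all lines. Its level was 1104, 1122 and 1138 CPM in C4-2 cells, 1072, 1053 and 1032 CPM in C4-2B, 434, 461 and 428 CPM in 22Rv1, and 197, 198 and 185 CPM in DU145. The lines did not overlap. It was higher in BPCa by 1.96 ± 0.13 on the log2 scale (edgeR adjusted p = 5.57e-10). NDUFB8, another membrane arm subunit, was higher in both LPCa lines, with 175, 189 and 185 CPM in C4-2 cells, 196, 191 and 187 CPM in C4-2B, 308, 298 and 306 CPM in DU145, and 427, 385 and 409 CPM in 22Rv1. The 2 BPCa lines overlapped. It was lower in BPCa by −0.85 ± 0.15 (adjusted p = 6.04e-05). COX7A1, a complex IV isoform described below with the others, was lower by −0.84 ± 0.22 (adjusted p = 0.00225).

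The LPCa lines differed from each other more than the BPCa lines did. In DU145 against 22Rv1, 57 nuclear members were called lower and 11 higher, against 40.5% and 39.1% of all genes, with a median log2 fold change of −0.45 against −0.02. Complex I had 28 lower and 6 higher of 46, complex III 6 lower and 1 higher of 8, complex IV 10 lower and 2 higher of 15, and complex V 11 lower and 1 higher of 19. NDUFA13, a complex I accessory subunit, was lower by −2.11 ± 0.69 (edgeR adjusted p = 0.0104), at 14.1, 11.4 and 7.76 CPM in DU145 and 55.1, 47.5 and 43.0 CPM in 22Rv1. NDUFAF7, a methyltransferase needed to assemble complex I, was higher by 1.37 ± 0.11 (adjusted p = 5.77e-09), at 35.0, 37.2 and 38.8 CPM in DU145 and 13.1 to 15.7 CPM in 22Rv1. SDHA was higher by 0.87 ± 0.10 (adjusted p = 5.11e-07), at 249, 252 and 258 CPM in DU145 and 139 to 141 CPM in 22Rv1, while SDHB was lower by −0.41 ± 0.18 (adjusted p = 0.0426) and SDHC by −0.20 ± 0.05 (adjusted p = 0.000995). Of the mitochondrial members, MT-ND6 was called higher in DU145 by 0.88 ± 0.30 (adjusted p = 0.0136) and none lower. Without the library that stood apart, 12 mitochondrial members, of which MT-CO1 was lower, and 81 nuclear members were called in either direction, against 85.7% of all genes.

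Ranked over the 12 mono-cultures, 53 of the 92 nuclear members tested were lower in every DU145 library than in the other 9, as were 27.3% of all genes. The 9 that were higher there were SDHA, ATP5PO and ATP5PF (stalk subunits of the ATP synthase), COX7A1, COX7A2L, NDUFS6, NDUFAF2, NDUFAF7 and the readthrough NDUFC2-KCTD14. In 22Rv1, 27 nuclear members were above and 12 below all other mono-cultures, as were 24.7% and 18.3% of all genes. Genes of the cytosolic ribosome, which are no members, moved in the same direction as the nuclear share: they took 10.7% to 10.9% of the counts in the DU145 mono-cultures and 16.3% to 18.1% in the others. Their part in the result was not tested.

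C4-2B and C4-2 were close. No mitochondrial member was called by edgeR in either direction, with 0 at an unadjusted p under 0.05 and 0 by DESeq2. Of the nuclear members, 3 were called higher in C4-2B and 4 lower, against 7.41% and 6.24% of all genes. NDUFA4L2 was higher by 1.69 ± 0.20 (adjusted p = 2.20e-05), UQCRC1, a core protein of complex III, by 0.42 ± 0.12 (adjusted p = 0.0322), and NDUFB1 by 0.31 ± 0.08 (adjusted p = 0.0238). COX7B2 was lower by −1.48 ± 0.34 (adjusted p = 0.0118), the assembly factor NDUFAF6 by −0.26 ± 0.07 (adjusted p = 0.0229) and UQCRB of complex III by −0.24 ± 0.06 (adjusted p = 0.0167). NDUFC2-KCTD14 was also called lower, at 0.573 to 0.967 CPM in C4-2 and 0 in the 3 C4-2B libraries. Without the library that stood apart, 13 nuclear members were higher and 10 lower, 2 mitochondrial members higher and 4 lower, against 14.5% and 12.9% of all genes.

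**Figure D3:**
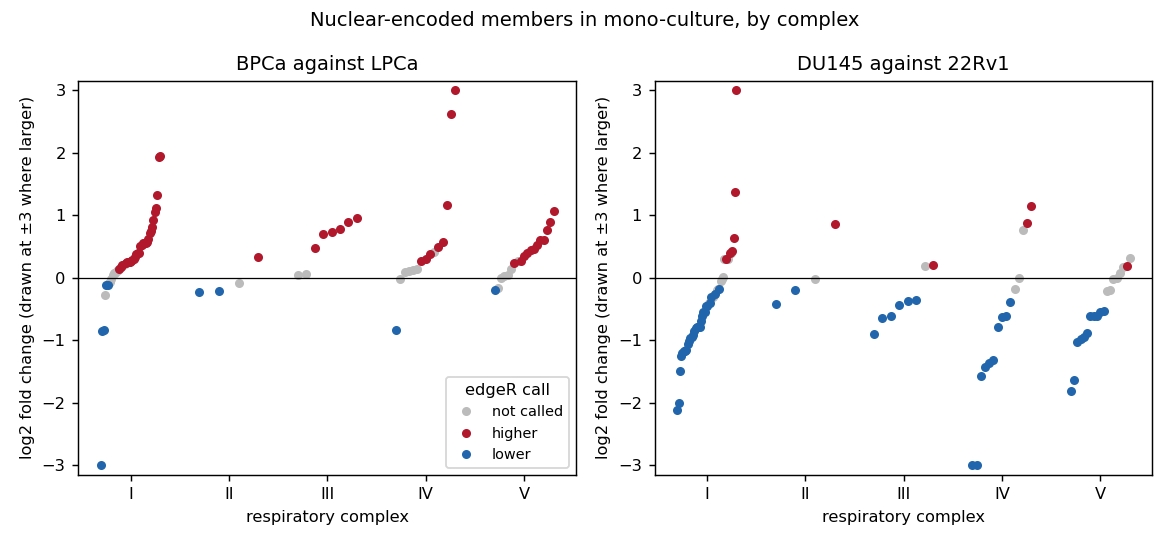
Log2 fold change of each nuclear-encoded member by respiratory complex for BPCa against LPCa (left) and DU145 against 22Rv1 (right) in mono-culture, drawn at 3 or −3 where larger, coloured by the edgeR call. Red points, higher, are most frequent in BPCa in complexes I, III, IV and V, and blue points, lower, in DU145, while complex II holds both.

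Complex IV has subunits with a common form and a form restricted to some tissues or conditions, and some of the restricted forms differed between the lines. NDUFA4L2 (chromosome 12, 57234903 to 57240715), a hypoxia-inducible relative of NDUFA4, was 16.2, 21.5 and 28.8 CPM in the C4-2B mono-cultures, 19.2, 15.8 and 13.8 CPM in 22Rv1 and 7.11, 7.75 and 6.38 CPM in C4-2 cells. In DU145 it was 0.231, 0.398 and 0.184 CPM, near the detection limit, so no fold is given for that line. NDUFA4 itself was 801 to 840 CPM in 22Rv1, 508 to 543 CPM in C4-2B, 516 to 522 CPM in C4-2 and 296 to 318 CPM in DU145. The common form was lower in DU145 than in 22Rv1, with a log2 fold change of −1.42 ± 0.11 (edgeR adjusted p = 3.88e-09), and the C4-2 and C4-2B levels overlapped.

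COX7B2 (chromosome 4, 46734827 to 46909235), a form of COX7B known from testis, was 8.84, 7.03 and 12.2 CPM in the C4-2 mono-cultures and 2.37, 3.78 and 3.61 CPM in those of C4-2B. It was at 0 in all 9 DU145 libraries and, in 22Rv1, at 0.127 and 0.246 CPM in mono-cultures 1 and 2 and at 0 in the others. The BPCa lines were above the LPCa lines in every library, and no fold is given against groups at 0. Its common form COX7B was 30.7 to 37.4 CPM in DU145 and 71.0 to 92.3 CPM in the other mono-cultures. The table lacks the principal transcript of COX7B, so its level may be too low.

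The other restricted forms had low levels. COX7A1, the heart and muscle form, was 3.28, 3.50 and 4.78 CPM in DU145 and 0.657 to 1.88 CPM in the other mono-cultures, and higher in DU145 than in 22Rv1 by 1.15 ± 0.30 (edgeR adjusted p = 0.00224). Its common form COX7A2 was 51.3 to 71.2 CPM in DU145 and 58.5 to 90.1 CPM elsewhere, with overlap. COX6B2, a testis form, was 1.45 to 1.71 CPM in DU145 mono-cultures and 0.677 to 1.07 CPM in the others, and was too low to be tested. The common form COX6B1 was itself low at 2.33 to 12.9 CPM, without an order among the lines. COX4I2, COX6A2 and COX8C, forms of lung, muscle and testis, reached at most 0.160, 0.0644 and 0.386 CPM in any mono-culture, where COX4I1, COX6A1 and COX8A were 656 to 890, 501 to 1406 and 633 to 1056 CPM.

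ATP5IF1, which blocks ATP hydrolysis by the ATP synthase, was 334 to 383 CPM in C4-2, 378 to 390 CPM in C4-2B, 361 to 392 CPM in 22Rv1 and 243 to 247 CPM in DU145. It was lower in DU145 than in 22Rv1 by −0.61 ± 0.08 (edgeR adjusted p = 4.83e-06), and the other lines overlapped. NDUFC2-KCTD14 is an RNA that reads through from NDUFC2 into its neighbour (chromosome 11, 78016971 to 78079865). It was given 40.4, 43.7 and 45.5 CPM in DU145, 1.93 to 4.01 CPM in 22Rv1, 0.573 to 0.967 CPM in C4-2 and 0 in C4-2B. As it shares its bases with NDUFC2, the split of the counts between them is uncertain.

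**Figure D4:**
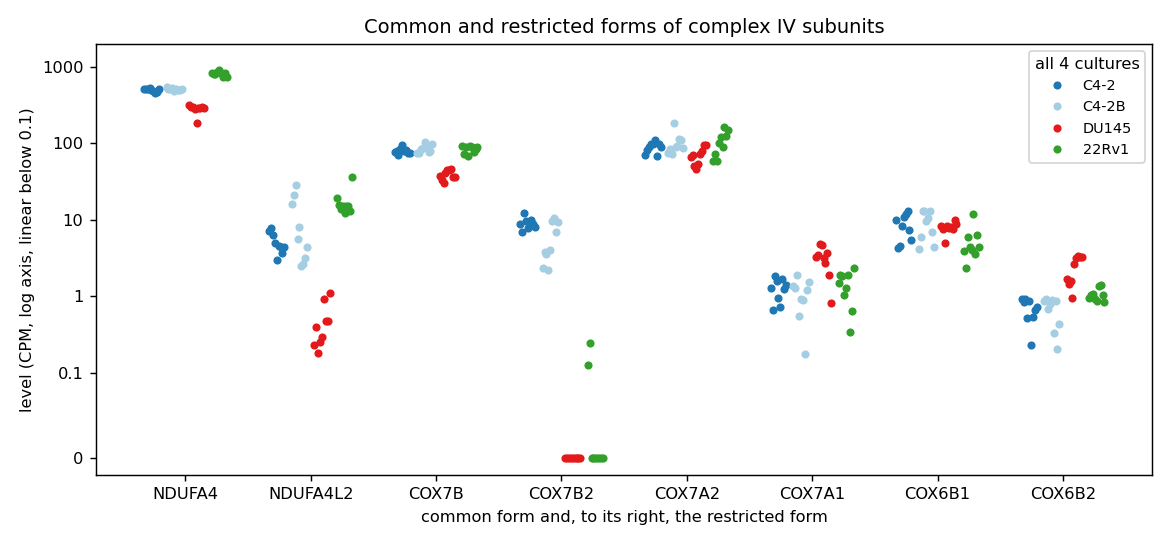
Level in CPM on a log axis (linear below 0.1) of common and restricted forms of complex IV subunits, 1 point for each of the 9 libraries of a line over all 4 cultures. NDUFA4L2 lies below 2 CPM in DU145 alone, and COX7B2 is at 0 in every DU145 library and in most of 22Rv1, whereas the common forms are present in all lines.

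Co-culture with MG63 cells was compared with mono-culture, averaging the 4 lines. Of 92 nuclear members, 42 were called higher with MG63 and 6 lower, against 18.1% of all genes higher and 19.3% lower, with a median log2 fold change of 0.15 against −0.02. All changes were small: none of the 48 passed a fold of 2. Complex I had 23 higher and 2 lower of 46, complex III 6 higher of 8, complex IV 5 higher and 1 lower of 15, and complex V 7 higher and 1 lower of 19. The largest were NDUFA6, a complex I accessory subunit, at 0.87 ± 0.33 (edgeR adjusted p = 0.0467), ATP5F1D, in the central stalk of the ATP synthase, at 0.81 ± 0.16 (adjusted p = 0.000941), and NDUFB7 of complex I at 0.58 ± 0.11 (adjusted p = 0.000606). Without replicate 2 of DU145 with MG63, ATP5F1D had 0.48 ± 0.03, NDUFB7 0.39 ± 0.03 and NDUFA6 1.07 ± 0.24. Against the mono-cultures with RANKL the direction of NDUFA6 turned, with −0.51 ± 0.29 (adjusted p = 0.221), and −0.31 ± 0.23 (adjusted p = 0.361) without the library that stood apart. Only 2 of the 5 transcripts given to NDUFA6 in the table match its annotation in GENCODE 29, so its level is uncertain.

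In complex II the anchors and the iron-sulphur subunit parted. SDHC was lower with MG63 by −0.27 ± 0.03 (edgeR adjusted p = 2.11e-06) and SDHD by −0.26 ± 0.04 (adjusted p = 6.77e-05), while SDHB was higher by 0.46 ± 0.10 (adjusted p = 0.00178; 0.29 ± 0.03 without the library that stood apart) and SDHA had 0.11 ± 0.06 (adjusted p = 0.115). SDHC was 159 and 156 CPM in C4-2 with MG63 against 204 to 206 in mono-culture, 160 and 167 against 202 to 211 in C4-2B, 165 and 175 against 230 to 240 in DU145, and 232 and 223 against 260 to 280 in 22Rv1. The co-cultures were below the mono-cultures of their own line in all 4 lines. Against the mono-cultures with RANKL, where SDHC was 161 to 209 CPM, SDHC was not called with MG63 (−0.04 ± 0.03, adjusted p = 0.456), and SDHD was lower by −0.10 ± 0.03 (adjusted p = 0.0303). NDUFA4L2 was lower with MG63 than in mono-culture without RANKL by −0.62 ± 0.22 (adjusted p = 0.0391), and was not called without that library (−0.65 ± 0.30, adjusted p = 0.0991).

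The mono-cultures with RANKL were sequenced about as deeply as the co-cultures and gave another count. The MG63 cultures had no RANKL, so a comparison with this control differs in RANKL as well as in MG63. With the RANKL mono-cultures as the control, 15 nuclear members were higher with MG63 and 6 lower, against 12.6% and 11.2% of all genes. Some of these calls follow the library that stood apart: the largest, NDUFA13 at 1.07, did so. With that library also left out, 13 were higher and 13 lower, against 12.9% and 13.2% of all genes. Scaling to the library size alone gave 27 higher and 16 lower against the mono-cultures without RANKL, where all genes split into 10.5% higher and 33.9% lower. The number of members called higher thus depended on the control and on the scaling.

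The mitochondrial members were called in neither direction in the MG63 comparison by edgeR, with 1 at an unadjusted p under 0.05 and 0 by DESeq2. This rests on 1 library. Without replicate 2 of DU145 with MG63, 10 were called higher and MT-ND4L lower, and 50 nuclear members higher and 15 lower, against 21.0% and 21.6% of all genes. MT-ND2 was then higher by 0.61 ± 0.03 (adjusted p = 2.26e-09), MT-ND1 by 0.58 ± 0.03 (adjusted p = 4.42e-10) and MT-ATP6 by 0.49 ± 0.03 (adjusted p = 3.67e-09), and MT-ND4L lower by −0.15 ± 0.04 (adjusted p = 0.00757). MT-ND1 was 7499 and 8002 CPM with MG63 against 5309 to 5649 in C4-2 mono-culture, 6053 and 6362 against 4066 to 4347 in C4-2B, and 8192 and 7568 against 5438 to 6216 in 22Rv1. In DU145 it was 13100 and 1808 CPM, one above and one below the mono-cultures at 9264 to 9659 CPM. Without replicate 1 of DU145 with MG63 instead, all 13 were called lower, and 54 nuclear members were higher and 13 lower, against 23.7% of all genes higher and 30.0% lower. That fit holds the library that stood apart as the only one of its group, which is assumed to vary like the other groups. With the RANKL mono-cultures as control and replicate 2 left out, 2 mitochondrial members were higher and 2 lower.

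RANKL was then compared with no RANKL in mono-culture, over the same mono-cultures as control, so its calls and those for MG63 are not independent. Of the nuclear members 38 were called higher with RANKL and 4 lower, against 17.2% and 20.1% of all genes, with a median log2 fold change of 0.12 against −0.02. Complex I had 20 higher and 1 lower, complex III 4 higher, complex IV 4 higher and complex V 10 higher and 1 lower. NDUFA6 was higher by 1.38 ± 0.26 (edgeR adjusted p = 0.000181), and COX6B1 by 0.75 ± 0.22 (adjusted p = 0.0107). NDUFC2-KCTD14 was called higher at levels from 0 to 62.5 CPM with RANKL, and no fold is given as several libraries are at 0. The 4 lower were SDHC by −0.23 ± 0.03 (adjusted p = 1.66e-06), ATP5F1A, the alpha subunit of the ATP synthase, by −0.20 ± 0.03 (adjusted p = 1.10e-05), SDHD by −0.15 ± 0.03 (adjusted p = 0.000219) and NDUFS1, which carries iron-sulphur clusters of complex I, by −0.11 ± 0.03 (adjusted p = 0.00219). These libraries were also less deeply sequenced than their controls, and depth and RANKL cannot be told apart. Scaled to the library size alone, 26 were higher and 18 lower, against 10.4% and 32.0% of all genes.

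Among the mitochondrial members MT-ND6 was higher with RANKL by 0.39 ± 0.13 (edgeR adjusted p = 0.0193) and the others were not called. This call was lost when libraries were scaled to their size alone and in the fit with a replicate block. MT-ND6 was 3051 and 3271 CPM with RANKL in C4-2 against 2506 to 2675 without, 3349 and 3517 against 2674 to 2917 in C4-2B, 4977 and 5466 against 4184 to 4504 in DU145, and 3213 and 3200 against 2210 to 2597 in 22Rv1. It did not overlap between the groups in any line. This count too rests on replicate 2 of DU145 with MG63, which is fitted with the other libraries. Without it 12 mitochondrial members were higher and MT-ND4L lower by −0.20 ± 0.04 (adjusted p = 0.000144), and 49 nuclear members were higher and 12 lower, against 21.4% and 24.1% of all genes. MT-ATP6 was then higher by 0.43 ± 0.03 (adjusted p = 5.29e-12), and MT-CO1 by 0.08 ± 0.02 (adjusted p = 0.0107).

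Co-culture with RAW264.7 cells was compared with RANKL mono-culture, at like depth and with RANKL on both sides. No mitochondrial and no nuclear member was called by edgeR, where 0.0434% of all genes were higher and 0.0781% lower. At an unadjusted p under 0.05 there were 8 of 13 mitochondrial and 6 of 91 nuclear members, against 7.54% of all genes. DESeq2 called 2 mitochondrial members higher and 0 nuclear ones, where it called 14 genes higher and 21 lower of 11525. The median log2 fold change of the mitochondrial members was 0.08, and 12 of the 13 were above 0. MT-ND5 came nearest among the mitochondrial members at 0.11 ± 0.03 (edgeR adjusted p = 0.191). The median log2 fold change of the nuclear members was −0.02.

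**Figure D5:**
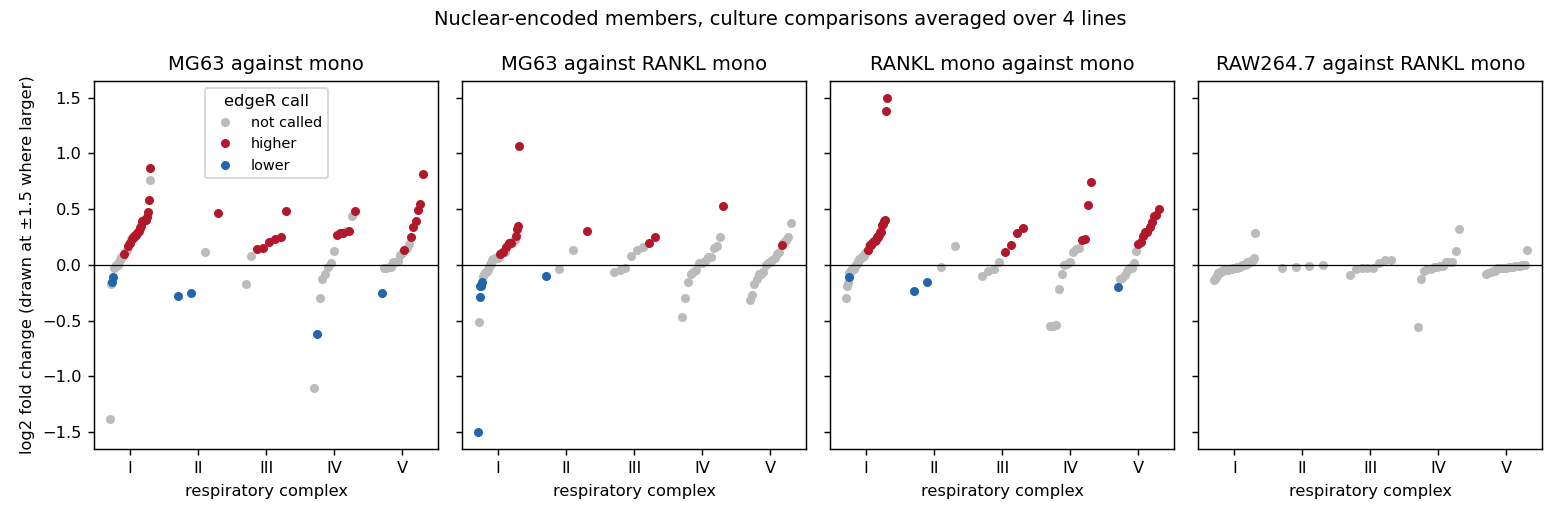
Log2 fold change of each nuclear-encoded member by respiratory complex, averaged over the 4 lines and drawn at 1.5 or −1.5 where larger, for MG63 against mono-culture, MG63 against RANKL mono-culture, RANKL against no RANKL, and RAW264.7 against RANKL mono-culture, coloured by the edgeR call. The panels hold 48, 21, 42 and 0 called members.

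The effect of MG63 differed between the lines for 5 nuclear members (edgeR test on 3 degrees of freedom), against 14.5% of all genes. At an unadjusted p under 0.05 there were 40 of 92, against 32.4% of all genes, and DESeq2 called 27, against 24.7%. With all 36 libraries in 1 fit 45 were called, against 25.4%. With the RANKL mono-cultures as control 56 were called, against 36.8% of all genes, and 67 without the library that stood apart as well, against 39.3%. NDUFB2 (adjusted p = 0.00334) and NDUFA1 (adjusted p = 0.00754), both accessory subunits of complex I, were higher with MG63 in 22Rv1, with log2 fold changes of 0.35 ± 0.07 and 0.30 ± 0.07, and lower in DU145, with −0.26 ± 0.07 and −0.20 ± 0.07. NDUFB2 was 515 and 525 CPM with MG63 in 22Rv1 against 417 to 462 CPM in mono-culture, and 135 and 157 against 180 to 186 CPM in DU145. Both DU145 replicates lay below the mono-cultures and both 22Rv1 replicates above. NDUFS5 (adjusted p = 0.0482) had log2 fold changes of 0.54 ± 0.08 in 22Rv1 and 0.13 ± 0.08 in C4-2B. NDUFA4L2 (adjusted p = 0.0295) fell in C4-2B, from 16.2 to 28.8 CPM to 5.68 and 8.08 CPM. NDUFA13 (adjusted p = 0.00979) was at 436 CPM in replicate 2 of DU145 with MG63 and at 11.9 CPM in replicate 1. Without that library 44 nuclear members and 1 mitochondrial member were called, against 24.3% of all genes, and without replicate 1 instead 74 and 13, against 54.1% of all genes, with the library that stood apart again alone in its group.

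No mitochondrial member was called for a difference between lines of the MG63 effect, with 0 at an unadjusted p under 0.05 and 0 by DESeq2. MT-CO1 (adjusted p = 0.259), MT-ND4L (adjusted p = 0.317) and MT-CO2 (adjusted p = 0.326) had the smallest p. In 22Rv1, 28 of 92 nuclear members were higher with MG63 and 1 lower, against 11.2% and 9.18% of all genes. Without the library that stood apart these were 60 and 2, against 20.2% and 16.2% of all genes. The same fit gave 37 higher and 9 lower in C4-2 (12.7% and 11.2% of all genes), 19 and 11 in C4-2B (10.1% and 10.1%), and 17 and 8 in DU145 (7.21% and 7.80%). With both DU145 libraries with MG63 kept, DU145 had 40 higher and 8 lower, against 15.2% and 15.3%, C4-2 had 7 and 1, against 5.30% and 4.79%, and C4-2B had 2 and 3, against 3.52% and 3.89%. Leaving out that library thus moved the count of higher members by more than 1.5 times in every line, and in C4-2B it turned the order of higher and lower. DU145 with MG63 is a single library once replicate 2 is left out, and is assumed to vary like the other groups. The summed nuclear share was 2.97% and 3.05% in 22Rv1 with MG63, above its mono-cultures at 2.61% to 2.75% and its RANKL mono-cultures at 2.58% and 2.64%. With the RANKL mono-cultures as control, 24 nuclear members were higher in 22Rv1 and 0 lower, against 8.02% and 7.26% of all genes, and with that control and without the library 60 were higher and 1 lower, against 13.8% and 10.8%. The other lines had more lower than higher in that last fit. C4-2 had 1 higher and 11 lower, against 8.50% and 9.17% of all genes, C4-2B 2 and 17, against 6.94% and 7.14%, and DU145 5 and 16, where 23.0% of all genes were called in either direction.

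The effect of RANKL differed between the lines for 18 nuclear members, against 32.6% of all genes, and for no mitochondrial member, with 0 at an unadjusted p under 0.05 and 0 by DESeq2. MT-CO1 (adjusted p = 0.655), MT-ND1 (adjusted p = 0.736) and MT-ND4L (adjusted p = 0.757) had the smallest p. NDUFAF6 (adjusted p = 1.45e-05) was higher with RANKL in C4-2, at 53.7 and 50.1 CPM against 40.4 to 43.7 CPM, and lower in 22Rv1, at 36.6 and 32.6 CPM against 46.2 to 51.3 CPM. It was also lower in DU145, at 26.2 and 26.7 CPM against 35.7 to 37.6 CPM, so the LPCa lines fell where C4-2 rose. UQCRB (adjusted p = 2.14e-05) had the same order, with log2 fold changes of 0.28 ± 0.07 in C4-2, −0.24 ± 0.07 in DU145 and −0.38 ± 0.07 in 22Rv1. NDUFA4L2 (adjusted p = 5.54e-05) fell in C4-2B to 2.47 and 2.62 CPM and was 15.3 and 15.2 CPM in 22Rv1, within the range of its mono-cultures there. Without the library that stood apart, 45 nuclear and 7 mitochondrial members were called, against 47.6% of all genes. For RAW264.7, no member was called (0.0347% of all genes were), with 10 nuclear and 0 mitochondrial members at an unadjusted p under 0.05 and 0 by DESeq2. NDUFB1 (adjusted p = 0.672), COX5B and NDUFAF5 (both 0.686) and, among the mitochondrial members, MT-ATP6 (0.846), MT-ND6 (0.916) and MT-ATP8 (0.921) had the smallest p.

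The make-up of the mitochondrial RNA differed between the mono-cultures without RANKL and the 3 other cultures. MT-ATP6 made up 8.66% to 9.004% of the mitochondrial counts in C4-2 mono-cultures and 10.2% to 11.4% in its other cultures, 8.81% to 9.002% and 10.5% to 11.2% in C4-2B, and 7.90% to 8.04% and 8.85% to 10.4% in 22Rv1. MT-ND1 and MT-ND2 were likewise above the mono-cultures in every other library of these 3 lines. MT-ND4L went the other way, from 9.60% to 9.81% in 22Rv1 mono-cultures to 6.18% to 6.75% in the others, from 7.59% to 7.81% to 5.71% to 6.54% in C4-2, and from 7.73% to 8.06% to 5.93% to 7.27% in C4-2B. The shares of these messages thus moved in opposite directions. In DU145 the ranges overlapped for all of these genes through replicate 2 with MG63. Without that library MT-ATP6 was 8.84% to 9.16% in mono-culture and 9.90% to 10.35% in the others, and MT-ND4L 9.01% to 9.55% and 7.36% to 7.88%. MT-ND1 and MT-ND2 were then also above the mono-cultures in the 5 other libraries. All 3 other cultures had less depth than the mono-cultures without RANKL, and depth and culture cannot be told apart here.

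Replicate 2 of DU145 with MG63 had 10418452 counts, within the range of the other co-cultures. MT-CYB, the complex III subunit, was 1016 CPM there and 9286 CPM in the median of the other 8 DU145 libraries. MT-CO3 was 2222 against 18400 CPM, and MT-ND4L was 4669 against 11179 CPM. All 13 were below the lowest of the other 8. Of the 94 nuclear members with a median above 0 in those 8, 48 were above all 8 in this library, 25 below and 21 within, where 23.7% of all genes with such a median were above and 29.3% below, while any other DU145 library had at most 9 above and 17 below. NDUFA13 was 436 against a median of 11.7 CPM, ATP5F1D 686 against 154 CPM, COX6C of complex IV 1691 against 451 CPM, NDUFB7 351 against 124 CPM and SDHB 325 against 126 CPM. NDUFA6 went down, with 2.30 against 31.8 CPM. The library kept the DU145 marker VIM, at 833 to 1176 CPM in both DU145 libraries with MG63. The 11 MG63 and stromal markers summed to 12.01 CPM in this library, above the other 8 DU145 libraries at 5.55 to 11.0 CPM, of which replicate 1 with MG63 was at 6.95 CPM, and 6 of the 11 were at or under the detection limit, POSTN at 0. Cytosolic ribosomal genes took 15.1% of its counts against 10.7% to 12.6% in the other DU145 libraries. The part of these values in what sets the library apart was not tested.

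Other mitochondrial genes were counted in the same way. Between BPCa and LPCa mono-cultures, where 39.4% of all genes were called higher and 40.4% lower, 58 of 78 mitochondrial ribosomal protein genes were called higher and 9 lower, 25 of 44 assembly factors and cytochrome c genes higher and 8 lower, 10 of 14 TCA cycle genes higher and 1 lower, 15 of 30 genes of mitochondrial DNA and RNA handling higher and 7 lower, and 5 of 9 regulators of mitochondrial biogenesis higher and 2 lower. In DU145 against 22Rv1, where 39.1% of all genes were higher and 40.5% lower, 13 of the 14 TCA cycle genes were lower and 0 higher, with a median log2 fold change of −0.72, beside 24 lower and 9 higher assembly genes, 30 lower and 20 higher ribosomal genes, 13 lower and 10 higher handling genes, and 4 lower and 1 higher biogenesis regulators. With MG63, 35 mitochondrial ribosomal genes were higher and 2 lower, against 18.1% and 19.3% of all genes. The list counts were not repeated without the library that stood apart or with the RANKL control. The ribosomal genes summed to 6941 and 8525 CPM in DU145 with MG63 against 6741 to 6919 in mono-culture. In 22Rv1 they summed to 8238 and 8479 against 7716 to 8088 CPM. The ranges overlapped in C4-2 (9225 and 9231 against 9189 to 9327 CPM) and C4-2B (8941 and 9199 against 8883 to 9099 CPM). The assembly genes had 14 higher and 8 lower, with a median log2 fold change of 0.04, the TCA cycle genes 5 and 2, the handling genes 5 and 4, and the biogenesis regulators 1 and 2. With RANKL, 32 ribosomal genes were higher and 7 lower, against 17.2% and 20.1% of all genes, with 13 and 12 assembly genes, 6 and 0 TCA cycle genes, and 4 and 1 biogenesis regulators. Of the handling genes 4 were higher and 11 lower with RANKL, with a median log2 fold change of 0.01 against −0.02 over all genes. With RAW264.7, 0 genes of any of these lists were called by edgeR. Of the 386 nuclear copies of mitochondrial genes, which include copies of the ribosomal RNAs, 9 were tested, and 4 were called lower and 2 higher in BPCa.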

How the data were processed

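The authors pseudoaligned the reads to the transcriptome with kallisto and deposited estimated counts per transcript, 1 column for each of the 36 libraries. The paper also describes a tximport step after kallisto and the use of scaled TPM counts. Whether the deposited values are scaled in this way was not tested. The strand setting and the annotation release are not given in the sources used here. The submitters' processing notes name hg19, while the transcript identifiers match GENCODE 29 on GRCh38. Of 161149 lines, 2491 repeated a transcript, and each of the 159837 transcripts was used once. Transcripts without a symbol held 0.526% to 0.764% of the counts and stayed in the totals. Counts were summed per gene, divided by the library total for CPM, and rounded for the tests.

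Tests used edgeR 4.0.16 with limma 3.58.1 in R 4.3.3 (TMM, quasi-likelihood, Benjamini-Hochberg adjustment over all genes that reached 100 counts in 1 library or more, called under 0.05), with DESeq2 1.42.0 as an alternative. BPCa against LPCa, the lines of each type against each other, and MG63 against mono-culture were fitted on the 20 libraries without RANKL, RANKL against none on all 36, and RAW264.7 on the 16 with RANKL. Tables and figures were made with Python 3.11.15, numpy 2.4.6, pandas 2.3.3 and matplotlib 3.10.9, and the fits were tested on simulated data. The precision is set by the number of libraries and by depth, 9593426 to 36719047 counts a library.

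The members and gene lists were chosen with earlier results of these data known. Symbols ending in P and a digit were left out as pseudogenes (154 of 265), except MT-ATP6 and MT-ATP8, which are no pseudogenes. Named were the 13 mitochondrial members, the restricted isoforms with their common forms, ATP5IF1, SDHA to SDHD, the 3 called nuclear members with the largest change in each direction of a comparison, the 3 of each genome with the smallest p in tests between lines, and members of a count of 5 or fewer. Other members were named after their values were seen. Alternatives were another scaling, filter, tool, fit, control or threshold, a replicate block, and leaving out each library. Leaving out replicate 2 of DU145 with MG63 outside its own comparison, or together with the RANKL control, was chosen after seeing the data.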

Additional observations from a re-analysis of the deposited data

Results flagged for a closer look

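The effect of a culture differed between the lines for some nuclear members by edgeR's test of the difference itself. These were 5 of 92 with MG63 and 18 of 92 with RANKL, against 14.5% and 32.6% of all genes. In these fits the members were thus called less often than genes at large. With MG63 these were NDUFB2 (adjusted p = 0.00334), NDUFA1 (adjusted p = 0.00754), NDUFA13 (adjusted p = 0.00979), NDUFA4L2 (adjusted p = 0.0295) and NDUFS5 (adjusted p = 0.0482). NDUFB2 had log2 fold changes of 0.02 in C4-2, −0.13 in C4-2B, −0.26 in DU145 and 0.35 in 22Rv1. NDUFA13 had 4.39 in DU145, where replicate 2 was at 436 CPM and replicate 1 at 11.9 CPM, and between −0.78 and −0.17 in the other lines.

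The 5 named here of the 18 with RANKL are NDUFAF6 (adjusted p = 1.45e-05), UQCRB (adjusted p = 2.14e-05), NDUFA4L2 (adjusted p = 5.54e-05), SDHC (adjusted p = 0.0276) and COX7B2 (adjusted p = 0.0321). SDHC had log2 fold changes of −0.07 in C4-2, −0.24 in C4-2B, −0.23 in DU145 and −0.40 in 22Rv1. COX7B2 was 9.72 and 10.6 CPM in C4-2B with RANKL against 2.37 to 3.78 CPM without, and 9.51 and 10.1 CPM in C4-2 with RANKL against 7.03 to 12.2 CPM without. NDUFA4L2 went the other way in C4-2B, to 2.47 and 2.62 CPM with RANKL from 16.2 to 28.8 CPM. The causes of these differences were not tested.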

How the results depend on the processing

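Over all alternatives, 630 values of counts and shares stayed within the limits set for a change and 85 moved. Named genes kept direction and call in 5865 cases, gained a call in 182, lost it in 156 and reversed in 8. The causes were not tested. Below, a count without a share of all genes beside it shows how calls moved with the processing, not a trait of the members.

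BPCa against LPCa gave 6 mitochondrial members lower by DESeq2, which called 5632 of 13437 genes lower. The comparison gave 7 with all 36 libraries in 1 fit and 0 at a fold above 2 with an unadjusted p under 0.05. At that fold it gave 9 nuclear members higher and 1 lower. C4-2B against C4-2 gave 5 nuclear members higher with all libraries, 1 by library size and 1 at the fold, and 2 lower at the fold. DU145 against 22Rv1 gave 3 mitochondrial members higher by DESeq2, 4 with all libraries and 0 at the fold, 1 lower with all libraries, and 3 nuclear members higher and 19 lower at the fold. Of 13437 genes, DESeq2 called 5305 higher in DU145.

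MG63 against mono-culture gave 15 nuclear members higher with the RANKL control, 13 with that control and replicate 2 of DU145 left out, 27 by library size and 0 at the fold. It gave 13 lower with that control and library, 16 by library size and 0 at the fold. Of the mitochondrial members, 2 were higher and 2 lower with that control and library, and 1 lower with all libraries or by library size. With the RANKL control, and then also without the library, ATP5IF1 reversed to −0.0652 and −0.0234, COX7A2 to −0.0473 and −0.0856 and NDUFA6 to −0.51 and −0.31, and with both changes COX4I1 reversed to −0.0507 and COX6A1 to −0.0269. The lines differed in 27 nuclear members by DESeq2 (24.7% of all genes), 56 with the RANKL control (36.8%), 67 with it and without the library (39.3%), and 45 with all libraries (25.4%), and in 3 mitochondrial members with that control and library.

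RANKL against none gave 5 mitochondrial members higher by DESeq2, 3 by relative log expression factors, and 0 by library size, under the replicate block or at the fold. Of 13454 genes, 2744 were higher by DESeq2 and 2645 by those factors. RANKL against none gave 1 mitochondrial member lower by library size or without a filter. For nuclear members it gave 2 higher at the fold, and 18, 8 and 0 lower by library size, without a filter and at the fold. RAW264.7 gave 2 mitochondrial members higher by DESeq2.

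Leaving out each library in turn gave, for mitochondrial members higher and lower and nuclear members higher and lower, 0 to 0, 3 to 13, 53 to 67 and 8 to 11 for BPCa against LPCa. The ranges were 0 to 2, 0 to 4, 1 to 13 and 1 to 10 for C4-2B against C4-2, 1 to 11, 0 to 1, 10 to 16 and 55 to 65 for DU145 against 22Rv1, 0 to 10, 0 to 13, 34 to 54 and 4 to 15 for MG63, 1 to 12, 0 to 1, 32 to 49 and 4 to 12 for RANKL, and 0, 0, 0 and 0 to 1 for RAW264.7. Differences between lines ranged from 0 to 13 and 3 to 74 for MG63, 0 to 7 and 10 to 45 for RANKL, and 0 and 0 for RAW264.7.

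Mean mitochondrial shares ranged from 9.703% to 9.815% in C4-2, 8.982% to 9.143% in C4-2B, 14.23% to 14.56% in DU145 and 11.81% to 12.61% in 22Rv1, and nuclear shares from 2.792% to 2.813%, 2.745% to 2.804%, 1.821% to 1.845% and 2.657% to 2.727%. As a percent of the counts outside the mitochondrial genome, the mitochondrial shares were 10.79, 9.955, 16.75 and 13.9, and the nuclear shares 3.102, 3.045, 2.144 and 3.059.

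Replicate numbers did not pair the libraries: the 24 correlations of deviations between same-numbered libraries were −0.05 to 0.06. With the replicate block, MG63 gave 33 nuclear members higher and 6 lower, and RANKL 31 and 4. The share of all genes under the block is not given, so these counts cannot be set against genes at large.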
